A study of Mus musculus with 6 samples.

Results

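The 7 genes described here encode the enzymes that switch the pyruvate dehydrogenase complex off and on: the 4 pyruvate dehydrogenase kinases Pdk1, Pdk2, Pdk3 and Pdk4, and the 3 phosphatase genes Pdp1, Pdp2 and Pdpr. They were taken by symbol from a table of 49315 mouse genes, each symbol matched 1 Ensembl identifier, and all 7 passed the filter on low counts that left 14508 genes for testing. RNA was sequenced from 3 hearts of Arrdc4 knockout mice, made with CRISPR-Cas9, and from 3 hearts of wild-type mice. Both groups were of the C57BL/6 background and no treatment is labelled for either. The labels name no promoter, Cre or restricted cell type for the knockout, and age, sex, feeding state, collection time and the number of founder lines are absent from the labels. Nothing in the labels says more of the replicates than a number, so p-values weigh differences against the spread between these hearts. For the genotype test that spread is estimated with information shared across genes.

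The pyruvate dehydrogenase complex sits in the mitochondrial matrix and turns pyruvate into acetyl-CoA, which commits glucose carbon to oxidation. The kinases phosphorylate the alpha subunit of its decarboxylating component and stop it, and the phosphatases remove the phosphate and restart it. The heart uses this switch to move between fatty acids and glucose: Pdk4 is known to be induced by fasting, fatty acids and glucocorticoids through PPAR alpha, FOXO and glucocorticoid receptors, Pdk1 is a known target of the hypoxia factor HIF, and Pdp1 is the calcium-stimulated phosphatase of muscle. Arrdc4 is an alpha-arrestin, a relative of Txnip, which restrains glucose uptake.

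Arrdc4 was read first, as a check of the labels. It had 5, 1 and 2 reads in knockout replicates 1 to 3, against 349, 307 and 281 reads in wild-type replicates 1 to 3. Libraries held between 29974501 and 41036626 counts. Heart muscle markers summed to 71060 to 82801 CPM (read counts relative to the TMM-scaled library size) in knockout hearts and 72903 to 81226 CPM in wild-type hearts over 10 genes, each detected in all 6 hearts. Single markers were less even than this sum. Myh6 (9167 to 29523 CPM), Ttn (788 to 3235 CPM) and Ryr2 were lowest in knockout replicate 2 and wild-type replicate 3. Myl2 (5054 to 11846 CPM), Myl3, Tnni3, Tnnt2, Pln and Mb were highest in those 2 hearts, and Actc1 was neither. Of 6 adipocyte markers none passed the filter, and they summed to at most 0.700 CPM in knockout hearts and 0.776 CPM in wild-type hearts. Of 5 atrial markers, Sln and Bmp10 did not pass the filter and Myl7 reached at most 0.933 CPM in any heart. Myl4 reached at most 1.85 CPM, and Nppa ran from 58.2 to 127 CPM. Which chambers the samples held was not tested. Xist reads were present in knockout replicates 2 and 3 and wild-type replicate 3, and Y-linked reads in the other 3 hearts. Knockout replicate 2 and wild-type replicate 3 stood apart from the other 4 hearts and were closer to each other than any other pair of libraries. Over the 14483 tested genes with a known exon length, each heart's log2 CPM minus the gene's mean over the 6 hearts was set against exon length. Relative to that mean, the slope was -0.139 and -0.145 per doubling of length in these 2 hearts and between 0.00991 and 0.0985 in the other 4.

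No kinase or phosphatase transcript was called different in knockout hearts. Of the 7 genes 0 passed an adjusted p of 0.05 in edgeR's quasi-likelihood test, where 0.00689% of all tested genes did, which is Arrdc4 alone; DESeq2 and limma-voom called 0 of the 7 as well. None of the 7 had an unadjusted p under 0.05 in edgeR, where 1.23% of all tested genes did. That share is smaller than a threshold of 0.05 passes when nothing differs, so few genes of any kind reached it. In none of the 7 did the 3 knockout hearts separate from the 3 wild-type hearts, while the groups did not overlap for 4.07% of all tested genes. The knockout value was higher for 2 members and lower for 5, with a median log2 fold change of -0.04, against 0.0092 over all tested genes. The 95% interval of the fold change stayed within 2-fold in either direction for all 7 members and within 1.5-fold for 4 of them. Over all tested genes these shares were 76.5% and 39.7%. These intervals hold under edgeR's model, which shares information on spread across genes. Pdk4 itself had a within-genotype SD of 0.57 on the log2 scale, against a median of 0.29 over all tested genes, so its 2-fold bound leans on that sharing. In RNA from mixed heart tissue, fewer cells of a type and less RNA per cell cannot be told apart in any of these values.

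**Figure D1:**
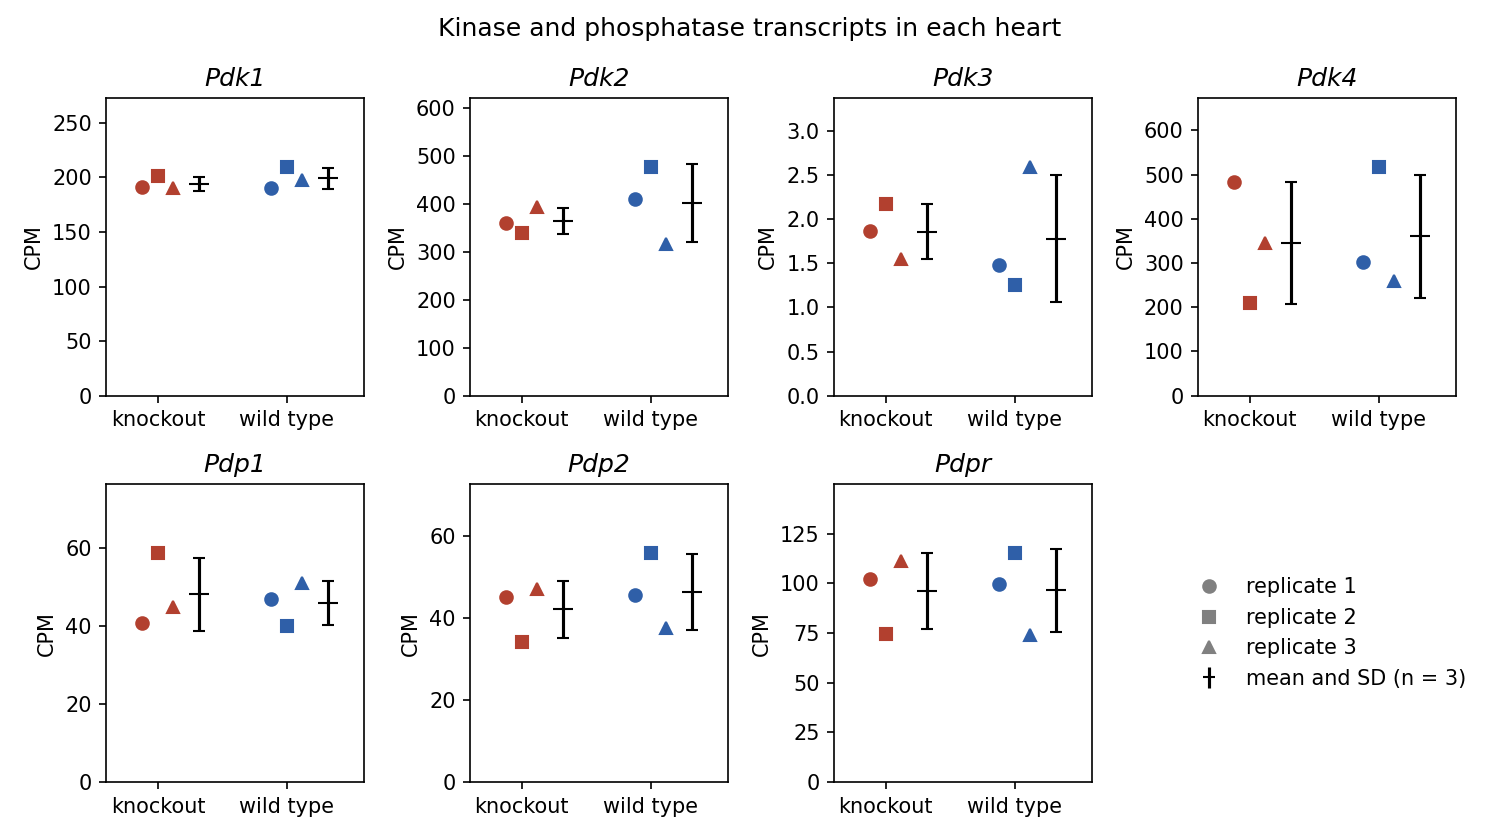
Each panel plots 1 gene in CPM from 0, with knockout hearts in red and wild-type hearts in blue, symbols for replicates 1 to 3, and the mean with its SD (n = 3) in black. Knockout and wild-type hearts overlap in every panel, Pdk1 is nearly level over the 6 hearts, and Pdk4 runs from 209 to 518 CPM.

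Among the kinases, Pdk4, the isoform that fasting induces, spread most between hearts. Pdk4 (ENSMUSG00000019577, GRCm38 chromosome 6, 5483351 to 5496309, minus strand) had 483, 209 and 344 CPM in knockout replicates 1 to 3, against 303, 518 and 260 CPM in wild-type replicates 1 to 3. The highest heart was wild-type replicate 2 and the next was knockout replicate 1, so that each genotype held 1 high heart and the groups overlapped throughout. The means were 345 ± 137 CPM in knockout hearts and 360 ± 138 CPM in wild-type hearts (SD, n = 3 each). The log2 fold change was -0.06 (SE 0.37, 95% interval -0.92 to 0.80, unadjusted p = 0.872 in edgeR). Fold changes from 0.530 to 1.74 thus lay inside the interval. With 6057 to 20705 reads per heart, counting error amounted to an SD of 0.0127 on the log2 scale, against 0.51 observed over the 6 hearts.

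Pdk2, the most widely expressed kinase, had the highest mean level per exon length of the 7. Pdk2 (ENSMUSG00000038967, chromosome 11, 95026258 to 95041354, minus strand) had 359, 339 and 392 CPM in knockout hearts and 410, 477 and 315 CPM in wild-type hearts. The 3 knockout hearts lay below wild-type replicates 1 and 2, and the groups overlapped only through wild-type replicate 3, the lowest heart, with knockout replicate 2 next. The log2 fold change was -0.14 (SE 0.19, 95% interval -0.58 to 0.30, unadjusted p = 0.471 in edgeR). It was -0.29 without wild-type replicate 3 (unadjusted p = 0.139 in edgeR), -0.25 without that heart and knockout replicate 2 (unadjusted p = 0.105 in edgeR), and -0.0025 without wild-type replicate 2. The p of 0.105 was the smallest of 126 member values under the alternatives. With a term for Y-linked reads the log2 fold change of Pdk2 was -0.047 (unadjusted p = 0.812 in edgeR). Its means were 363 ± 27.0 CPM in knockout hearts and 401 ± 81.1 CPM in wild-type hearts (SD, n = 3 each). An antisense gene, Gm11513, overlaps Pdk2 and held at most 2 reads in a heart.

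Pdk1, the kinase under HIF control, was nearly constant. Pdk1 (ENSMUSG00000006494, chromosome 2, 71873224 to 71903858, plus strand) had 191, 201 and 190.0 CPM in knockout hearts and 190.5, 209.9 and 198 CPM in wild-type hearts. The highest heart exceeded the lowest 1.105-fold, and an SD of 0.0568 on the log2 scale over 6 hearts was undercut by 1.36% of all tested genes. The log2 fold change was -0.04 (SE 0.13, 95% interval -0.34 to 0.26, unadjusted p = 0.775 in edgeR). Of the 7 members Pdk1 had the narrowest interval, with fold changes from 0.790 to 1.20 inside it.

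Pdk3, an X-linked kinase, was close to the floor. Pdk3 (ENSMUSG00000035232, chromosome X, 93764607 to 93832201, minus strand) had 80, 63 and 59 reads in knockout hearts, or 1.87, 2.17 and 1.54 CPM. It had 47, 47 and 87 reads in wild-type hearts, or 1.49, 1.25 and 2.60 CPM. The wild-type hearts held both the lowest and the highest value. The log2 fold change was 0.06 (SE 0.32, 95% interval -0.69 to 0.82, unadjusted p = 0.850 in edgeR), and counting error alone gave an SD of 0.181 on the log2 scale. The 3 hearts with Xist reads had 2.17, 1.54 and 2.60 CPM and the 3 with Y-linked reads had 1.87, 1.49 and 1.25 CPM, ranges that overlap.

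Of the phosphatase genes, the catalytic subunits Pdp1 and Pdp2 had their highest and lowest values in opposite hearts. Pdp1 (ENSMUSG00000049225, chromosome 4, 11958184 to 11966452, minus strand) had 40.7, 58.6 and 44.8 CPM in knockout hearts and 46.7, 39.9 and 51.0 CPM in wild-type hearts. Pdp2 (ENSMUSG00000048371, chromosome 8, 104591451 to 104599026, plus strand), the isoform known for its sensitivity to insulin in rat tissues, had 44.9, 34.2 and 47.0 CPM in knockout hearts and 45.6, 55.8 and 37.4 CPM in wild-type hearts. Knockout replicate 2 was the highest heart for Pdp1 and the lowest for Pdp2. Wild-type replicate 2 was the lowest heart for Pdp1 and the highest for Pdp2. The log2 fold changes were 0.07 for Pdp1 (SE 0.18, 95% interval -0.36 to 0.49) and -0.14 for Pdp2 (SE 0.20, 95% interval -0.60 to 0.33), with unadjusted p of 0.726 and 0.508 in edgeR.

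Pdpr, which encodes the regulatory subunit that lowers the phosphatase's affinity for magnesium, had the highest level per exon length of the 3 phosphatase genes. Pdpr (ENSMUSG00000033624, chromosome 8, 111094630 to 111137074, plus strand) had 102, 74.5 and 111 CPM in knockout hearts and 99.7, 115 and 74.2 CPM in wild-type hearts. Each genotype held 1 low heart, knockout replicate 2 and wild-type replicate 3. The log2 fold change was -0.0063 (SE 0.22, 95% interval -0.52 to 0.51, unadjusted p = 0.978 in edgeR). The noncoding gene 9430091E24Rik overlaps Pdpr on the other strand with 156 to 287 reads per heart, against at least 2163 for Pdpr. No label gives the strand setting of the counting, so reads of the shared stretch cannot be assigned to one of them with certainty.

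Divided by exon length (RPKM, CPM per kilobase of the union of annotated exons), the members fell into 3 tiers. Pdk2 stood at 121 ± 18.3 RPKM and Pdk4 at 100.5 ± 35.1 (SD, n = 6 hearts). Pdk1 at 25.3 ± 1.01, Pdpr at 19.1 ± 3.55, Pdp1 at 10.4 ± 1.56 and Pdp2 at 7.76 ± 1.34 RPKM formed a middle tier, and Pdk3 at 0.710 ± 0.194 RPKM the lowest. The 6 neighbouring pairs in this order were compared within each heart by an exact permutation test that flips the sign of each heart's log2 difference, two-sided and adjusted over the 6 pairs. The smallest p that 6 hearts allow is 0.0312 before adjustment. Pairs and directions were taken from the same hearts, so these p-values are no independent test of the order. Every step that held in all 6 hearts has that smallest p, whatever its size. The steps Pdk4 over Pdk1 (3.78-fold), Pdk1 over Pdpr (1.34-fold), Pdpr over Pdp1 (1.82-fold) and Pdp2 over Pdk3 (11.1-fold) held in 6 of 6 hearts, each with an exact adjusted p of 0.0469. Pdk2 over Pdk4 (1.25-fold) held in 5 of 6 hearts with an exact adjusted p of 0.0938, and Pdp1 over Pdp2 (1.35-fold) in 5 of 6 with 0.0750, so that neither pair was separated beyond its spread. The exceptions were knockout replicate 1, where Pdk4 exceeded Pdk2 1.21-fold, and wild-type replicate 2, where Pdp1 was 0.902 times Pdp2. The Pdk4 exception depended on the length used: with the longest annotated transcript the ratio of Pdk4 to Pdk2 was 0.867 in knockout replicate 1 and 0.397 to 0.700 in the other 5 hearts.

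**Figure D2:**
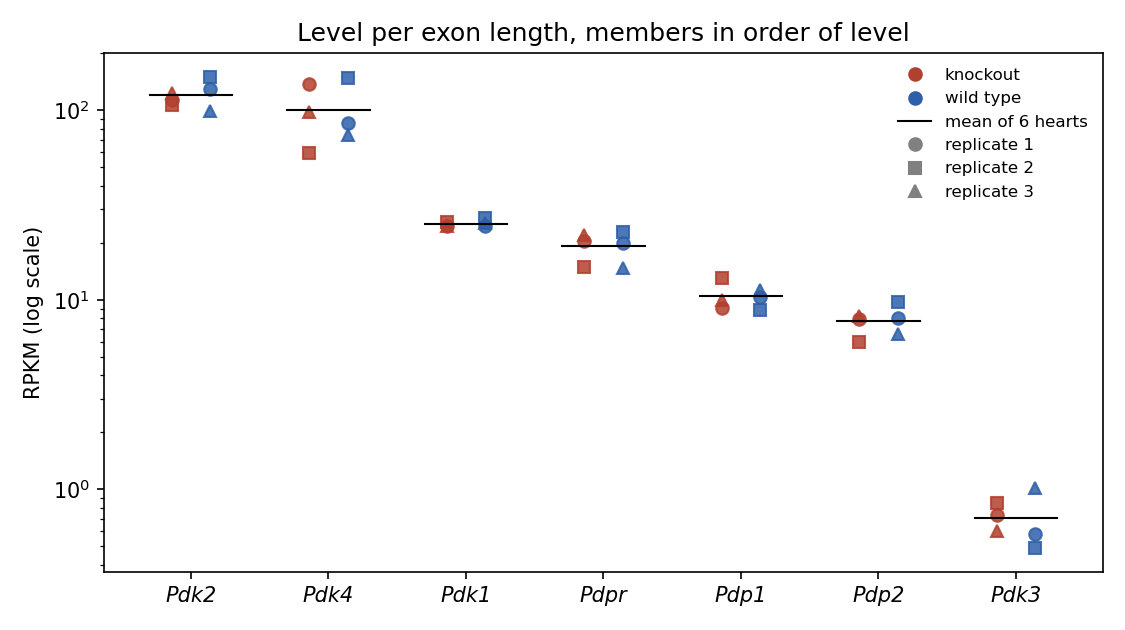
The plot shows each member's level per exon length in RPKM on a log axis, in order of level, with knockout hearts in red on the left and wild-type hearts in blue on the right of each gene, and the mean of 6 hearts as a line. Pdk2 and Pdk4 lie near 100, Pdk3 reaches at most 1.01 in any heart, and colours mix at each gene.

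Pdk2 and Pdk4 together made up most of the kinase transcripts in every heart. Of the summed kinase RPKM, Pdk4 took 49.8%, 30.8% and 39.7% in knockout replicates 1 to 3, against 35.8%, 45.3% and 37.0% in wild-type replicates 1 to 3. Pdk2 took 48.9% ± 7.26 in knockout hearts and 49.97% ± 3.77 in wild-type hearts (SD, n = 3 each). Pdk1 took 8.89% to 13.4% in knockout hearts and 8.28% to 12.7% in wild-type hearts, and Pdk3 at most 0.506% in any heart. The summed kinases exceeded the summed catalytic phosphatases Pdp1 and Pdp2 by 16.3, 10.2 and 13.6 times in knockout hearts and by 13.1, 17.5 and 11.2 times in wild-type hearts. That ratio moved with the kinases: they summed to 193 to 276 RPKM in knockout hearts and 200.2 to 326 in wild-type hearts, whereas the phosphatases summed to 16.9 to 19.0 RPKM in knockout hearts and 17.9 to 18.6 in wild-type hearts. These shares weigh transcripts, and the files hold no measure of the proteins or of their activity.

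**Figure D3:**
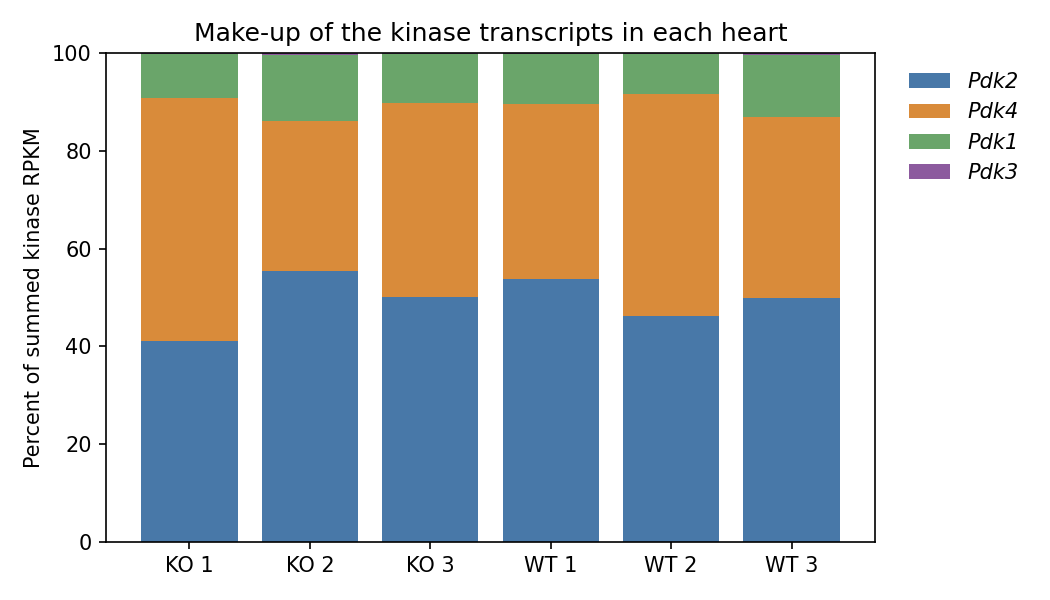
Stacked bars give the percent of the summed kinase RPKM that each kinase takes in each of the 6 hearts, knockout (KO) on the left and wild type (WT) on the right. Pdk2 and Pdk4 fill most of every bar, and Pdk3, at 0.506% or less, is barely visible at the top.

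The members differed in how far they varied between hearts, genotype aside. Over the 6 hearts the SD of log2 CPM was 0.51 for Pdk4, 0.38 for Pdk3, 0.28 for Pdpr, 0.25 for Pdp2, 0.21 for Pdk2 and Pdp1, and 0.0568 for Pdk1, against a median of 0.28 over all tested genes. For Pdk4, 85.3% of all tested genes had a smaller SD. The hearts knockout replicate 2 and wild-type replicate 3 were the lowest 2 for Pdk2, Pdk4, Pdp2 and Pdpr and the highest 2 for Pdk3 and Pdp1, and took neither place for Pdk1. Over all tested genes they were the lowest 2 for 29.0% and the highest 2 for 29.4%. Without these 2 hearts the SD was 0.37 for Pdk4, with 82.6% of genes below it, 0.17 for Pdk2, 0.14 for Pdp2, 0.0986 for Pdpr, 0.11 for Pdp1, 0.23 for Pdk3 and 0.0697 for Pdk1. Pdk4 still ran 1.71-fold from the lowest to the highest of the other 4 hearts, and Pdpr 1.16-fold. The part of the length trend in these differences was not tested.

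**Figure D4:**
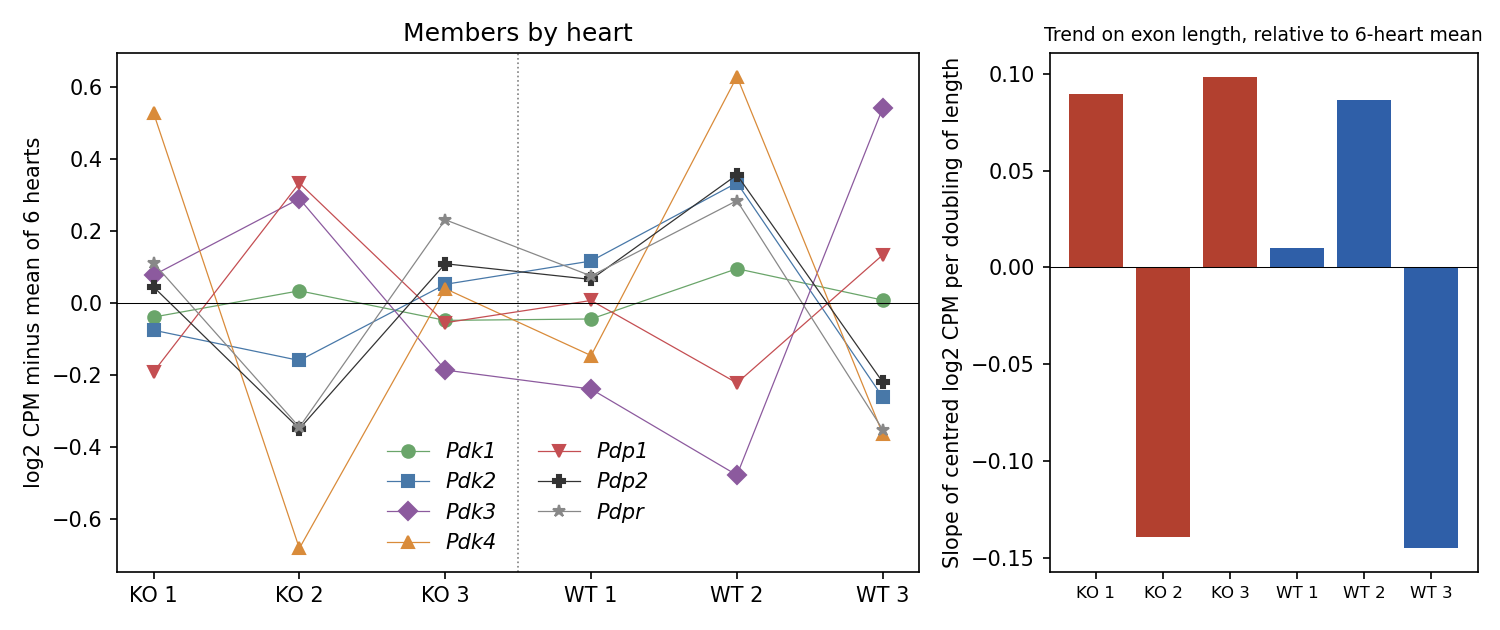
On the left, each member's log2 CPM minus its mean over 6 hearts is plotted by heart, knockout (KO) before wild type (WT), with lines only to guide the eye. On the right, bars give the slope of the same centred log2 CPM on exon length over 14483 genes, so that signs are relative to the mean of the 6 hearts. It is negative in KO 2 and WT 3 (-0.139 and -0.145). In these 2 hearts Pdk4 (3511 exon bases), Pdk2 (3163), Pdp2 (5692) and Pdpr (5028) are lowest. Pdk3 (2561) and Pdp1 (4507) are highest there, and Pdk1 (7779) is neither. The part of length in this was not tested.

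The proximal promoters of the 4 members that were lowest in those 2 hearts are shown for sequence context, with the E-box CACGTG in capitals where it occurs. This palindrome is bound by clock, MYC-family and glucose-sensing MondoA-family factors. Each window runs from 250 bases before the RefSeq start to 50 bases after it on GRCm38.p6, written 5′ to 3′ on the gene's strand. For Pdk2 the first of 2 RefSeq windows is chr11:95041322-95041621 (minus strand), for Pdpr chr8:111094495-111094794 (plus strand), for Pdp2 chr8:104591222-104591521 (plus strand) and for Pdk4 chr6:5496229-5496528 (minus strand).
Pdk2: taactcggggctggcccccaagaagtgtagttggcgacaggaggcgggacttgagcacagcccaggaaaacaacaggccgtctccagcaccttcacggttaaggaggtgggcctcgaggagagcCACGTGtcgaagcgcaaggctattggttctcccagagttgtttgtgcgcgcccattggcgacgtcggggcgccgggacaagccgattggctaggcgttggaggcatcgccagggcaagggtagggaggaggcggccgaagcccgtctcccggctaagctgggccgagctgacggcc
Pdpr: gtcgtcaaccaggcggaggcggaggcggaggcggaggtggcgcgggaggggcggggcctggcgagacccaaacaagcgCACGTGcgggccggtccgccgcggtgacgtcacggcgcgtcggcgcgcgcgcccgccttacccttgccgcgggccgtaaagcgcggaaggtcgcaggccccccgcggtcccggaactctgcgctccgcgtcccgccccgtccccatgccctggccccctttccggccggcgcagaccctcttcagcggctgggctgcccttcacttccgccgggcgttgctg
Pdp2: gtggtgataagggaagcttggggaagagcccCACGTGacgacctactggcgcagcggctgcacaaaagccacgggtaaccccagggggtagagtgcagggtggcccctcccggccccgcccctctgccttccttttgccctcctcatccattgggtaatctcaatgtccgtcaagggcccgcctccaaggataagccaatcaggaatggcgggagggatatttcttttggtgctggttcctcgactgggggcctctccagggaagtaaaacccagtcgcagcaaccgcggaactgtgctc
Pdk4: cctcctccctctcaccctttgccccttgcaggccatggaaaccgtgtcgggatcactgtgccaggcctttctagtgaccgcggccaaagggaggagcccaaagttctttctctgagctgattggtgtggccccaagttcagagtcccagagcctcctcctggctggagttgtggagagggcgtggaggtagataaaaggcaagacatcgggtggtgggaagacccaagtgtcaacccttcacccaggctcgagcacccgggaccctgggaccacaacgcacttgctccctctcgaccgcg

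The E-box began 126 bases before the start in Pdk2, 172 in Pdpr and 219 in Pdp2, and was not found in the Pdk4 window. RefSeq windows were matched for 6 of the 7 members, 8 windows in all, the exception being Pdp1. CACGTG stood in 3 of these 8 windows, against 7.15% of all 32851 promoter windows. The HIF core ACGTG, which lies within the E-box, was read on both strands in 4 of 8, against 19.6% of all windows, Pdk3 being the member that had it outside an E-box. The forkhead motif TGTTTAC was found on neither strand in any of the 8 windows, against 3.65% of all windows, and the nuclear receptor half-site AGGTCA in none of the 8, against 16.3%. CCAAT was found in 4 of 8 (37.4% of all windows) and the GC box GGGCGG in 4 of 8 (35.7%), both strands searched. A match describes these letters and does not show that a factor binds there.

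Pdk4 is a target of PPAR alpha, FOXO and glucocorticoid signalling, and the levels of these genes were read heart by heart beside it. Of 11 transcription factors and coactivators known to act on Pdk4 or Pdk1, 0 were called in either direction, 6 had higher and 5 lower values in knockout, and the median log2 fold change was 0.04. Knockout replicate 2 and wild-type replicate 3 were the lowest 2 hearts for 7 of the 11 and the highest 2 for 1. Over all tested genes these shares were 29.0% and 29.4%. Ppara itself averaged 40.2 ± 6.86 CPM in knockout hearts and 39.1 ± 0.947 CPM in wild-type hearts (SD, n = 3 each). The 2 with the smallest p were the glucocorticoid receptor Nr3c1 (log2 fold change 0.09, SE 0.19) and Foxo3 (0.16, SE 0.37), both lowest in knockout replicate 2 and wild-type replicate 3. Of 16 tested genes that fasting and fatty acids induce, 0 were called, 9 had higher and 7 lower values, and the median was 0.01. For 4 of the 16 those 2 hearts were lowest, and for 4 they were highest. The 2 smallest p of these 16 genes belonged to Ehhadh, a peroxisomal fatty acid oxidation enzyme, and Angptl4, an inhibitor of lipoprotein lipase. Ehhadh had 15.6, 15.7 and 13.7 CPM in knockout hearts, against 19.0, 23.4 and 18.0 CPM in wild-type hearts, without overlap (log2 fold change -0.42, SE 0.16, adjusted p = 1 in edgeR), where 1.9% of all tested genes had every knockout heart below every wild-type heart. Angptl4 gave 0.27 (SE 0.31).

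The order of hearts for Pdk4 was not that of Ucp3 and was close to that of Foxo1, which Rxra shared. Ucp3, a mitochondrial carrier induced by fatty acids, had 80.1, 53.0 and 111 CPM in knockout hearts and 59.9, 116 and 66.9 CPM in wild-type hearts. Knockout replicate 1, at 483 CPM the second highest heart for Pdk4, thus lay below knockout replicate 3 and wild-type replicate 2 for Ucp3. Foxo1 had 22.6, 12.1 and 19.4 CPM in knockout hearts and 17.2, 25.03 and 10.4 CPM in wild-type hearts. Of all tested genes 29.0% had knockout replicate 2 and wild-type replicate 3 lowest, as did Pdk4, Foxo1 and Rxra. A link between these genes was not tested. Of 13 genes induced by FOXO or glucocorticoids 0 were called, 1 had a higher and 12 lower values in knockout, with a median of -0.25. Over all tested genes the median was 0.0092 and 52.3% had a higher value in knockout. Of the 13 intervals 6 lay within 2-fold. Trim63 gave -0.04 (SE 0.16) and Fbxo32 -0.02 (SE 0.31). Ddit4, an inhibitor of mTOR signalling, stood at 39.9 ± 15.6 CPM in knockout hearts and 67.0 ± 14.03 CPM in wild-type hearts (SD, n = 3 each; log2 fold change -0.75, SE 0.31, adjusted p = 1 in edgeR). Irs2, an insulin receptor substrate, gave -0.88 (SE 0.50), with 25.03 CPM in wild-type replicate 2 and 5.94 to 9.68 CPM in the other 5 hearts.

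The hearts also differed in clock genes and in markers of non-muscle cells, and these values stand beside Pdk4. Dbp, a clock output gene, had 31.8, 20.3 and 142 CPM in knockout hearts and 16.3, 84.6 and 10.5 CPM in wild-type hearts. Arntl, the clock activator that peaks in the opposite phase, had 14.997, 19.8 and 2.09 CPM in knockout hearts and 23.8, 5.78 and 23.3 CPM in wild-type hearts. Knockout replicate 3 and wild-type replicate 2 were thus high in Dbp and low in Arntl, while for Pdk4 the top 2 places went to wild-type replicate 2 and to knockout replicate 1. Of 14 clock genes 0 were called, 9 had higher and 5 lower values in knockout, with Nr1d2 (0.30, SE 0.24) and Nr1d1 (0.25, SE 0.29) at the smallest p. The 6 macrophage markers, all tested, summed to 144, 46.3 and 86.0 CPM in knockout hearts and 80.1, 109 and 58.5 CPM in wild-type hearts. The 8 fibroblast markers, all tested, summed to 1241, 419 and 875 CPM in knockout hearts and 555, 758 and 503 CPM in wild-type hearts. None of these 14 markers was at 0 in any heart. Both sums were lowest in knockout replicate 2 and next lowest in wild-type replicate 3, as was Pdk4. Single markers differed: Cd68 and Fcgr1 of the macrophage list and Tcf21, Dcn and Lum of the fibroblast list did not have those 2 hearts lowest. The endothelial, smooth muscle and pericyte, and blood sums had other hearts as their lowest 2. The 7 endothelial markers summed to 1006, 765 and 874 CPM in knockout hearts and 783, 945 and 789 CPM in wild-type hearts, with wild-type replicate 1 next lowest after knockout replicate 2. Within this list Pecam1, Cdh5, Kdr and Tek were lowest in knockout replicate 2 and wild-type replicate 3, as was Pdk4. Fabp4 and Egfl7 were highest in those 2 hearts, and Vwf was neither. The 6 smooth muscle and pericyte markers summed to 738, 696 and 636 CPM in knockout hearts and 658, 557 and 812 CPM in wild-type hearts, highest in wild-type replicate 3 and lowest in wild-type replicate 2. The 5 blood markers summed to 765, 800.4 and 453 CPM in knockout hearts and 525, 674 and 759 CPM in wild-type hearts, highest in knockout replicate 2. The 7 epicardial and mesothelial markers summed to 37.0, 5.72 and 20.4 CPM in knockout hearts and 13.5, 8.23 and 7.10 CPM in wild-type hearts, with the lowest 2 hearts those of Pdk4. Among these 7 only Wt1 and Aldh1a2 singly had those 2 hearts lowest. The part of the clock genes and cell markers in the spread of Pdk4 was not tested.

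By the mean absolute difference in centred log2 CPM over the 6 hearts, among 10809 genes, the pattern of Pdk4 was most like that of Rrp12 (0.0325), Pltp (0.0529), Lbp (0.0554), Ifi207 (0.0771) and Papss2 (0.0805). Rrp12, at 31.5, 13.9 and 22.3 CPM in knockout hearts and 21.3, 33.2 and 17.3 CPM in wild-type hearts, shared the order of hearts with Pdk4. It was picked for likeness over these same hearts, so the shared order is no separate result. For Pdk3 the closest were Sec61b (0.0230), Rpl3 (0.0553), S100a10 (0.0559), Cdkn2c (0.0698) and Fgl2 (0.0713), measured against a gene with at most 87 reads in a heart. The other 5 members had an SD below 0.3 and were not searched.

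HIF target genes, read beside Pdk1, gave 0 calls among 10, with 4 higher and 6 lower values and a median of -0.01. Ankrd37, a HIF-induced ankyrin repeat protein, had 3.45, 4.10 and 3.80 CPM in knockout hearts, against 2.59, 2.24 and 3.04 CPM in wild-type hearts. The groups did not overlap (log2 fold change 0.53, SE 0.20, adjusted p = 1 in edgeR), as for 2.18% of all tested genes in that direction. The glucose transporter Slc2a1 gave -0.20 (SE 0.17). Hif1a averaged 77.9 ± 8.64 CPM in knockout hearts and 79.1 ± 11.5 CPM in wild-type hearts (SD, n = 3 each). Of 8 insulin signalling genes 0 were called, 2 had higher and 6 lower values, and the smallest p belonged to Irs1 (-0.36, SE 0.19) and Irs2. Akt1 also did not overlap between groups, at 174.8 to 186 CPM in knockout hearts and 157 to 174.3 CPM in wild-type hearts. Akt1 was singled out after its values were seen.

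The enzyme that the kinases and phosphatases act on was likewise not called. Of the 5 subunit genes of the complex 0 passed the test and all 5 had lower values in knockout, with a median log2 fold change of -0.10 and intervals within 2-fold for all 5. Pdha1, the X-linked alpha subunit that carries the phosphorylation sites, averaged 1209 ± 73.7 CPM in knockout hearts and 1250 ± 51.2 CPM in wild-type hearts (SD, n = 3 each; log2 fold change -0.05, SE 0.15). Pdhb, its beta partner, averaged 598 ± 111 CPM in knockout hearts and 684 ± 33.9 CPM in wild-type hearts (-0.20, SE 0.18). Dlat, the acetyltransferase core, averaged 480.1 ± 58.6 CPM in knockout hearts and 516 ± 78.8 CPM in wild-type hearts (-0.10, SE 0.18). Dld, the dehydrogenase shared with other complexes, gave -0.08 (SE 0.14), and Pdhx, which anchors Dld to the core, gave -0.17 (SE 0.14). Knockout replicate 2 and wild-type replicate 3 were the highest 2 hearts for Pdhb and Dld and the lowest 2 for Dlat. Per exon length Pdha1 stood at 324 RPKM in knockout hearts and 335 in wild-type hearts, and the ratio of its RPKM to that of the summed kinases was 1.09, 1.71 and 1.38 in knockout replicates 1 to 3, against 1.34, 1.07 and 1.66 in wild-type replicates 1 to 3.

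**Figure D5:**
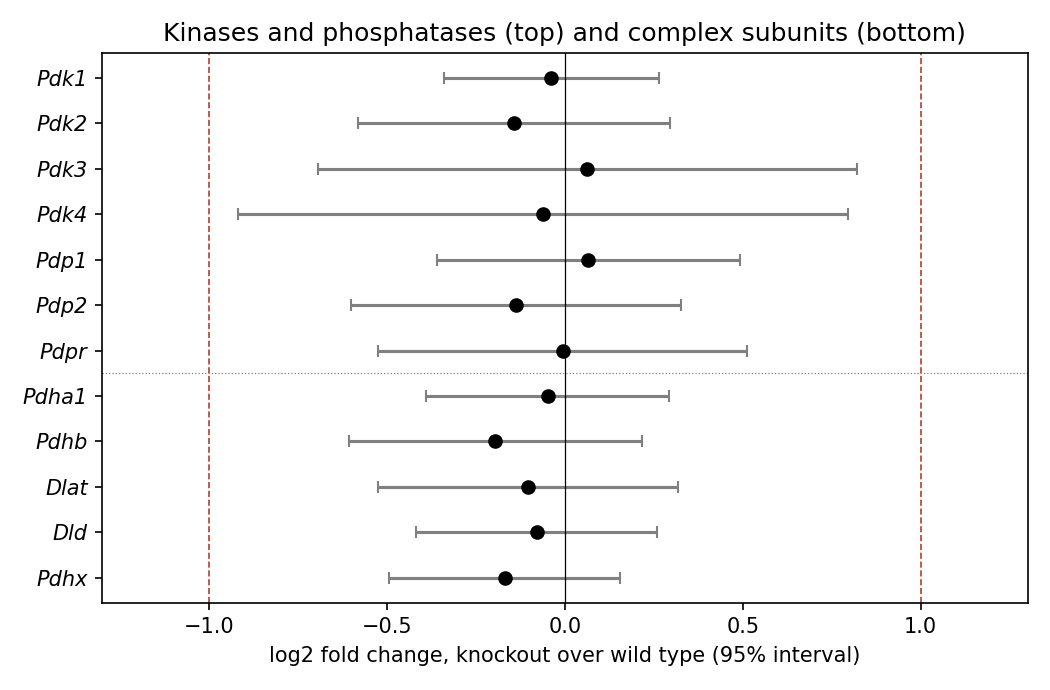
Points give the log2 fold change of knockout over wild type and bars the 95% interval from edgeR, for the 7 kinases and phosphatases above the dotted line and the 5 complex subunits under it. Every interval crosses 0 and lies between the dashed lines at a 2-fold difference, and those of Pdk3 and Pdk4 are the widest.

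Genes that bring pyruvate to the complex or divert it gave 0 calls among 10, with 4 higher and 6 lower values and a median of -0.07. Ldhb, the heart form of lactate dehydrogenase, averaged 1612 ± 438 CPM in knockout hearts and 1869 ± 272 CPM in wild-type hearts (SD, n = 3 each; log2 fold change -0.21, SE 0.23), and was highest in knockout replicate 2 and wild-type replicate 3. Gpt2, which exchanges pyruvate and alanine in mitochondria, gave -0.09 (SE 0.14). The mitochondrial pyruvate carrier subunits followed the 2 hearts that stood apart and were named for that after their values were seen. Mpc2 had 267, 593 and 291 CPM in knockout hearts and 374, 303 and 565 CPM in wild-type hearts, and Mpc1 had 226, 463 and 239 CPM in knockout hearts and 308, 258 and 440 CPM in wild-type hearts. Both carrier subunits were highest in the 2 hearts where Pdk4 was lowest. Of all tested genes 29.4% were highest and 29.0% lowest in those 2 hearts, and a link between the carrier and Pdk4 was not tested.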

How the data were processed

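RNA from 6 mouse hearts was sequenced after extraction on RNeasy columns and NEBNext Ultra II library preparation, per the labels. The authors deposited 1 table of whole-number read counts per gene, not normalized. The submitters' processing notes list GRCm38.p6 and the tools STAR, Subread 1.5.2 with featureCounts, and DESeq2, and give no roles. For annotation release, strand setting and multi-mapped reads the entry is: not given in the sources used here. Groups and replicate numbers came from sample titles.

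Genes were kept by filterByExpr of edgeR 4.0.16 (minimum count 10, minimum total 15) and scaled by TMM. Knockout was tested against wild type by the quasi-likelihood F test over all 14508 kept genes, adjusted by Benjamini-Hochberg at 0.05. Log2 fold changes are knockout over wild type, with SE taken as the fold change over the square root of F. No 2 libraries agreed within sampling noise (chi-square per degree of freedom 7.77 or more). Exon lengths came from GENCODE M21 on GRCm38 and promoters from RefSeq on GRCm38.p6. CPM are counts over TMM-scaled library sizes, and log2 CPM use a prior count of 2. Totals of 29974501 to 41036626 counts limit precision chiefly for Pdk3; counting errors cover counting only.

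The members and gene lists were chosen with earlier results of these data known. Named genes are the 7 members, Arrdc4, from each pathway list the genes past the threshold or else the 2 with the smallest p, all complex subunits, and for members with an SD of at least 0.3 the 5 genes of most similar pattern among genes averaging at least 1 on the log2 CPM scale. Genes named for context fall outside this rule and were chosen after their values were seen. They are Ppara, Hif1a, Ucp3, Foxo1, Rxra, Trim63, Fbxo32, Dbp, Arntl and single cell type markers. Alternatives were other scalings, filters, tools (DESeq2 1.42.0, limma 3.58.1 voom, robust edgeR), a replicate block and each library left out. Knockout replicate 2 and wild-type replicate 3 were also left out together or given a term. No label marks these 2 hearts, and they were picked out from the counts themselves. Also chosen after seeing the data were an offset for exon length (spline with 6 degrees of freedom) and a term for Y-linked reads.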

Additional observations from a re-analysis of the deposited data

How the results depend on the processing

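Under 18 alternatives each, 0 of 126 values of the 7 members were called, and the smallest adjusted p was 0.780. The number of members called stayed at 0 throughout. In 19 of the 126 the sign differed from the reported one. Pdk4 (reported -0.06) gave 0.000997 without wild-type replicate 3 and knockout replicate 2 together and 0.16 with a term for Y-linked reads. Pdp1 (0.07) gave -0.027 and -0.035 under the same settings. With the term for Y-linked reads Pdk3 (0.06) gave -0.028 and Pdpr (-0.0063) gave 0.13, and Pdpr gave 0.013 with library size alone and 0.0063 with no filter. With 1 library left out the log2 fold change ran from -0.38 (without knockout replicate 1) to 0.29 (without wild-type replicate 2) for Pdk4, -0.14 to 0.44 for Pdk3, -0.29 to -0.0025 for Pdk2, -0.07 to -0.0035 for Pdk1, -0.10 to 0.17 for Pdp1, -0.27 to 0.015 for Pdp2 and -0.16 to 0.15 for Pdpr. The cause was not tested.

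Over all genes 1 was called, Arrdc4. With the replicate number as a block, or without knockout replicate 3, 0 were called in edgeR, with 72 and 126 genes at an unadjusted p under 0.05 (179 in the reported test), and the count ran from 0 to 1 over the left-out libraries. Genes at an unadjusted p under 0.05 in edgeR numbered 1126 without knockout replicate 2. They numbered 981 without that heart and wild-type replicate 3, and 624 with a term for the 2 hearts. Without wild-type replicate 3 and knockout replicate 2 together 2 were called, Arrdc4 and Spp1 (log2 fold change 6.09, adjusted p = 0.00290 in edgeR), the second named after its value was seen. The 2 hearts left out were picked from these same counts. The labels do not say whether replicate numbers pair the hearts. Deviations from the group means correlated by 0.184, -0.649 and -0.399 for numbers 1, 2 and 3, and knockout replicate 2 correlated best with wild-type replicate 3 (0.684). Because those 2 hearts stand apart from the rest over many genes, these correlations cannot decide the question. Of the 6 steps in the order of levels, 4 held in every heart, 5 with the longest transcript as length, and 4 to 5 with 1 heart left out. It was 4 with reads scaled by the library total.

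Depth limits Pdk3 most, at 47 to 87 reads per heart: its counting SD was 0.181 on the log2 scale, against an SD of 0.38 between hearts. The other 6 members had 992 reads or more per heart and counting SDs of at most 0.0363. Intervals come from a model that shares information on spread across genes.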

Other observations

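The branched-chain ketoacid dehydrogenase, a sister complex, carries its own kinase and phosphatase, which gave no call. Bckdk, the kinase, averaged 101 ± 20.5 CPM in knockout hearts and 105 ± 9.76 CPM in wild-type hearts (SD, n = 3 each; log2 fold change -0.06, SE 0.18), and was highest in knockout replicate 2 and wild-type replicate 3. Ppm1k, the phosphatase, averaged 81.2 ± 7.40 CPM in knockout hearts and 87.6 ± 6.71 CPM in wild-type hearts (-0.11, SE 0.14). Of the 5 genes read for that complex 0 were called and all 5 had lower values in knockout. Dbt, its acyltransferase core, had 69.1, 90.9 and 77.1 CPM in knockout hearts and 95.7, 94.2 and 94.0 CPM in wild-type hearts, without overlap (-0.26, SE 0.15, adjusted p = 1 in edgeR), where 1.9% of all tested genes had every knockout heart below every wild-type heart. Bckdha, the alpha subunit, gave -0.16 (SE 0.15).

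The genes that attach lipoate, the cofactor of both complexes, gave 0 calls among 3. Lipt1, a lipoyl transferase, gave -0.23 (SE 0.19) and Lias, the lipoate synthase, gave -0.14 (SE 0.21). All 3 were highest in knockout replicate 2 and wild-type replicate 3, as were 29.4% of all tested genes. Lias had 44.4, 61.0 and 42.8 CPM in knockout hearts and 50.2, 46.1 and 67.0 CPM in wild-type hearts.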
